A study of Arabidopsis thaliana with 15 samples.

Results

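The genes described here lie on Arabidopsis thaliana chromosome 4 around BAK1 (AT4G33430). They were chosen by locus code, from AT4G32300 to AT4G34600, among probe sets of the Affymetrix ATH1 array with a single listed gene. There were 124 such probe sets for 122 genes, where the RefSeq gene table lists 255 protein-coding loci. Of these, 97 probe sets (96 genes) were tested, out of 15912 tested probe sets and 22810 on the array. The test took in probe sets with 3 or more of the 15 arrays above a log2 value of 4. The other 27 ran from 2.41 to 4.12, and the mean of their bak1-1D arrays differed by at most 0.14 from that of the other arrays. A further 8 probe sets list several genes with at least 1 in this range and were left out.

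BAK1 codes for a leucine-rich repeat receptor kinase that pairs with the brassinosteroid receptor BRI1 at the cell surface. Brassinosteroids are steroid hormones that promote cell expansion, and plants with a weak receptor stay small. Both kinases are switched on by phosphorylating each other once the hormone is bound. BAK1 also serves as co-receptor for immune receptors.

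RNA came from whole seedlings after 5 days of growth in light on solid medium with sucrose. All 5 genotypes have the WS2 background, with 3 biological replicates each and 1 array per replicate. WS2 is the wild type, and bri1-5 carries a weak allele of BRI1. The other lines carry bri1-5 together with a dominant suppressor, as bri1-5/bri1-1D, bri1-5/bak1-1D and bri1-5/brs1-1D, and are called bri1-1D, bak1-1D and brs1-1D below. The bri1-5 mutation is thus shared by 4 of the 5 genotypes. As background, bak1-1D is known as an activation-tagging allele, in which an inserted T-DNA brings viral enhancers close to BAK1. The labels state neither the insertion nor its position, and whether each line is a single insertion line is not given in the sources used here.

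BAK1, BRI1 and BRS1 had 0 probe sets with a single listed gene, so their own levels were not analysed here and the line names were not checked against them. Array medians over tested probe sets ran from 6.75 to 6.82. Of 10 leaf markers only RCA (Rubisco activase) had a named probe set, at 13.07 to 13.28, and 3 of 10 root markers did, at 4.66 to 8.17. The 3 pollen markers with a probe set stayed below 4 (2.81 to 3.78). In whole seedlings, fewer cells of a type and less RNA per cell cannot be told apart.

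The first question was which genes of the interval differ between bak1-1D and the other 4 genotypes. The genes that flank BAK1 directly in the locus order, AT4G33420 before it and AT4G33440 after it, were both higher in bak1-1D. AT4G33720, which codes for a protein of the PR-1-like CAP family, was 2.51-fold lower. Its fall of 1.33 on the log2 scale ranked 1 among the falls of all 15912 tested probe sets. AT4G33550 and AT4G34150 also rose, by 1.80-fold and 1.77-fold. In all 11 of the 97 members were called in bak1-1D against the mean of the other 4 genotypes, at an adjusted p under 0.05 (limma, Benjamini-Hochberg over all tested probe sets). Over the whole array 7.18% were called. The members split into 6 higher, where the array had 4.07%, and 5 lower, where it had 3.12%.

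**Figure D1:**
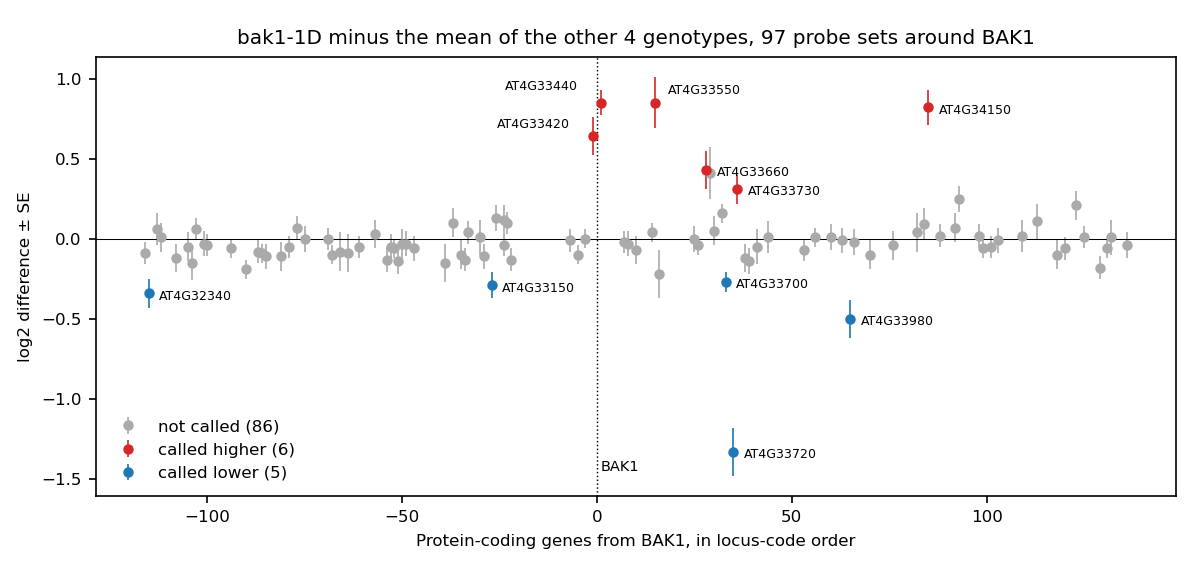
Log2 difference of bak1-1D from the mean of the other 4 genotype means (vertical axis, ± SE of the model, 3 against 12 arrays) for the 97 tested probe sets, placed by the number of protein-coding genes between each and BAK1 in locus-code order (horizontal axis). Red and blue mark the 6 called higher and the 5 called lower, and the 86 grey probe sets lie between -0.22 and 0.41.

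AT4G33440 codes for a protein of the pectin lyase-like (polygalacturonase) family, whose relatives cut the pectin of the cell wall. Its log2 values were 6.56, 6.20 and 6.23 in bak1-1D. They were 5.42, 5.17 and 5.36 in WS2, and 5.66, 5.47 and 5.54 in bri1-5. In bri1-1D they were 5.53, 5.58 and 5.36, and in brs1-1D 5.67, 5.49 and 5.48. Every bak1-1D array lay above every other array, by at least 0.53. The rise was 0.85 ± 0.08 on the log2 scale (SE, limma adjusted p = 3.93e-05), or 1.81-fold. It was called against each genotype singly, from 0.77 ± 0.11 over bri1-5 to 1.01 ± 0.11 over WS2, and whichever array was left out.

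AT4G33420 codes for a class III peroxidase, a secreted enzyme family that acts on cell wall phenolics. Its log2 values were 8.11, 8.44 and 8.21 in bak1-1D and 8.15, 7.47 and 8.07 in bri1-5. They were 7.38, 7.67 and 7.82 in WS2, 7.65, 7.68 and 7.46 in bri1-1D and 7.32, 7.25 and 7.48 in brs1-1D. The lowest bak1-1D array lay below 1 array, bri1-5 replicate 1, and above the remaining ones. The rise over the mean of the other 4 was 0.64 ± 0.12 (limma adjusted p = 0.00503), and without bak1-1D replicate 2 the call ended (adjusted p = 0.054). Against the parent bri1-5 the difference of 0.36 ± 0.15 was not called (adjusted p = 0.22). It was called against WS2 (0.63 ± 0.15), bri1-1D (0.66 ± 0.15) and brs1-1D (0.90 ± 0.15). The calls against WS2 and bri1-1D ended without bak1-1D replicate 2 and, in turn, without WS2 replicate 1 or bri1-1D replicate 3 (adjusted p up to 0.0781 and 0.0676).

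The tested genes next beyond this pair gave no call. Within 10 protein-coding genes of BAK1 on either side, 8 of 20 genes were tested, 4 on each side. Of the others, AT4G33370 and AT4G33390 were among the untested probe sets, at 3.55, 3.39 and 3.42 and at 2.85, 3.09 and 2.91 in bak1-1D, and the rest were not analysed here. The 6 that are not immediate neighbours of BAK1 differed by -0.10 to 0.00 from the mean of the other genotypes. FLDH, a farnesol dehydrogenase 7 genes before BAK1, stood at 7.50, 7.56 and 7.63 in bak1-1D and at 7.37 to 7.78 on the other 12 arrays (median 7.59). AT4G33400, 3 genes before, stood at 6.39, 6.44 and 6.41 against 6.25 to 6.62. In both, the bak1-1D arrays lay inside the range of the others.

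After BAK1, AT4G33480 (7 genes away) stood at 6.77, 6.63 and 6.84 in bak1-1D against 6.56 to 6.88 on the other arrays. AT4G33490 of the aspartic protease family (8 genes away) differed by -0.03 ± 0.08 and AT4G33500 (10 genes away) by -0.07 ± 0.09. AT4G33380, 5 genes before BAK1, differed by -0.10 ± 0.06. SLOMO, an F-box gene of the shoot meristem 22 genes before, differed by -0.13 ± 0.07, and AT4G33540, 14 genes after, by 0.04 ± 0.06. None of these was called in this comparison (limma adjusted p from 0.296 to 0.997 over the 8 uncalled nearest genes). AT4G33540 was called against WS2 alone, at 0.28 ± 0.08, where WS2 arrays stood at 8.15, 8.08 and 7.92 and bak1-1D arrays at 8.41, 8.26 and 8.32. That call ended without WS2 replicate 2 or 3 or bak1-1D replicate 1 or 3 (adjusted p up to 0.122). The parent bri1-5 was also higher than WS2, by 0.29 ± 0.08 (limma adjusted p = 0.017, up to 0.0872 without 1 array). Means of the 4 lines that carry bri1-5 ran from 8.33 to 8.39, and that of WS2 was 8.05.

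**Figure D2:**
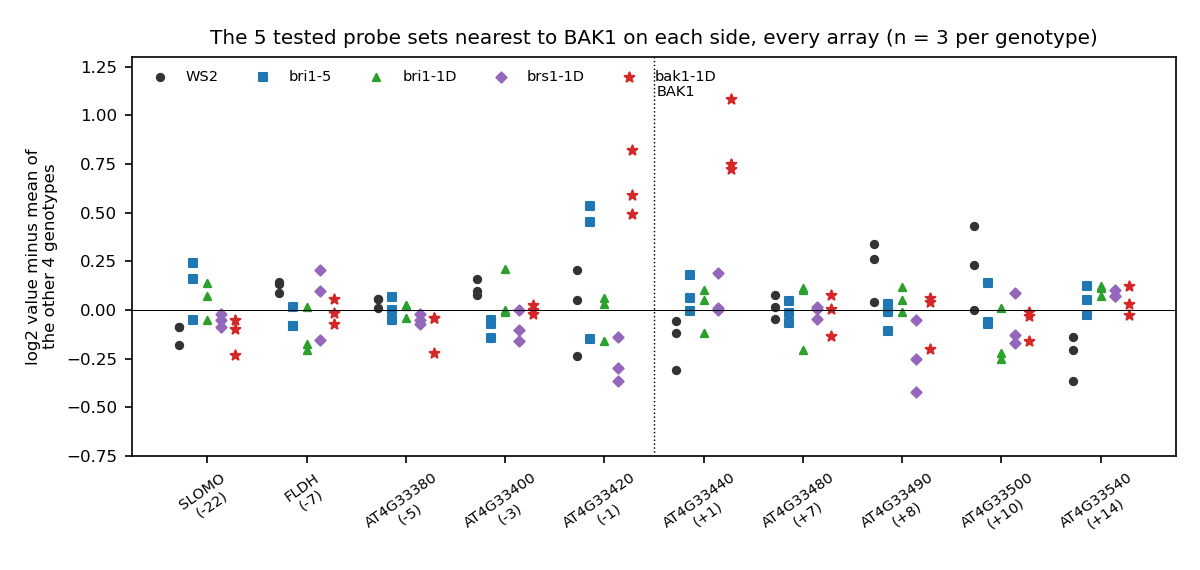
Log2 value of each array minus the mean of the other 4 genotype means (vertical axis) for the 5 tested probe sets nearest to BAK1 on each side, with the number of protein-coding genes from BAK1 in brackets. The 3 bak1-1D arrays (stars) stand above all others in AT4G33440 and above all but 1 bri1-5 array in AT4G33420, and lie within or near the other arrays in the remaining 8.

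Farther after BAK1, single genes were called. AT4G33550, 15 genes after BAK1, codes for a protein of the lipid transfer protein superfamily. Its log2 values were 7.82, 7.84 and 8.48 in bak1-1D, above 6.16 to 7.66 on the other 12 arrays (median 7.43). WS2 was lowest, at 6.16, 6.92 and 6.64, while bri1-5 stood at 7.50, 7.48 and 7.61. The rise over the mean of the other 4 was 0.85 ± 0.16 (limma adjusted p = 0.00546, and 0.057 without bak1-1D replicate 3). The gene also rose in bri1-5 against WS2, by 0.96 ± 0.21. The further difference of bak1-1D from bri1-5 was 0.51 ± 0.21 and was not called (adjusted p = 0.188). The rise over WS2 was 1.47 ± 0.21 and was called whichever array was left out. That over bri1-1D was 0.72 ± 0.21 (adjusted p = 0.0393), a call lost in 4 fits without 1 array (up to 0.171). Against brs1-1D the difference of 0.69 ± 0.21 was not called (0.0527, and 0.0235 with the replicate block). These comparisons share arrays.

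AT4G34150, 85 genes after BAK1, codes for a protein with a C2 domain, a fold that binds lipids with calcium. Its log2 values were 9.95, 10.06 and 10.09 in bak1-1D. They were 9.20, 9.22 and 9.72 in WS2, 9.20, 9.10 and 9.53 in bri1-5, 8.96, 8.71 and 8.74 in bri1-1D and 9.32, 9.35 and 9.49 in brs1-1D. All bak1-1D arrays lay above all others, by at least 0.24. The rise was 0.82 ± 0.11 (limma adjusted p = 0.000315) and was called against each of the 4 genotypes, at 0.65 ± 0.13 to 1.23 ± 0.13, whichever array was left out.

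AT4G33720 lies 35 genes after BAK1, between its relatives AT4G33710 and AT4G33730. PR-1-like CAP proteins are secreted, and the family is known for members induced by pathogens. Log2 values of AT4G33720 were 4.82, 4.39 and 4.73 in bak1-1D. They were 6.10, 5.78 and 5.83 in WS2, 5.97, 6.51 and 6.42 in bri1-5, and 6.15, 5.83 and 6.49 in brs1-1D. In bri1-1D they were 5.60, 5.21 and 5.81, so bri1-1D held the lowest of the 12 other arrays, 0.39 above the highest of bak1-1D. The fall in bak1-1D was -1.33 ± 0.15 (limma adjusted p = 8.32e-05). Against single genotypes it ran from -0.89 ± 0.19 (bri1-1D) to -1.65 ± 0.19 (bri1-5), called in every comparison and whichever array was left out. The difference of bri1-1D from bri1-5 was -0.76 ± 0.19 and was not called (adjusted p = 0.107).

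Of the neighbouring CAP genes, AT4G33710 was not tested, with values of 2.83 to 3.22 on all 15 arrays. AT4G33730 stood at 5.59, 5.48 and 5.76 in bak1-1D and at 5.55, 5.83 and 5.59 in brs1-1D. WS2 had 5.23, 5.40 and 5.31, bri1-5 had 4.95, 5.22 and 5.31, and bri1-1D had 5.16, 5.16 and 4.92. Thus bak1-1D and brs1-1D lay above the other 3 genotypes, which include the suppressor line bri1-1D, with no overlap. Against bri1-5 the rise was 0.45 ± 0.11 in bak1-1D (limma adjusted p = 0.0283) and 0.50 ± 0.11 in brs1-1D (adjusted p = 0.0316). Each call ended without bri1-5 replicate 1 or 2 (bak1-1D also without its replicate 1 or 3, brs1-1D without its replicate 2 or 3), with adjusted p up to 0.12 and 0.129. Against the mean of the other 4 the bak1-1D rise was 0.31 ± 0.09 (adjusted p = 0.0431), and this call ended in 9 of 15 fits that left out 1 array (adjusted p up to 0.245) and without the filter on low values (0.0505). The arrays were any bak1-1D array, WS2 replicate 1 or 3, bri1-5 replicate 2, bri1-1D replicate 3, or brs1-1D replicate 1 or 3. Cross-hybridisation between the probes of these relatives was not tested.

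AT4G33660, 28 genes after BAK1, codes for a small cysteine-rich transmembrane (CYSTM) protein. Values were 7.22, 7.57 and 7.17 in bak1-1D and 7.29, 7.35 and 7.53 in WS2. They were 6.96, 6.34 and 6.69 in bri1-5, 6.80, 6.76 and 6.43 in bri1-1D and 6.97, 6.71 and 6.88 in brs1-1D. WS2 and bak1-1D overlapped and lay above the remaining 3 genotypes. The gene fell by 0.72 ± 0.15 in bri1-5 against WS2 and was 0.66 ± 0.15 higher in bak1-1D than in bri1-5 (limma adjusted p = 0.0184). These comparisons share the bri1-5 arrays. The second call ended without bri1-5 replicate 2 or bak1-1D replicate 2 (adjusted p up to 0.0986). The difference of bak1-1D from WS2 was -0.07 ± 0.15. Against the mean of the other 4 the rise was 0.43 ± 0.12 (adjusted p = 0.0366, and up to 0.272 without any bak1-1D array, WS2 replicate 1 or 2, or brs1-1D replicate 2).

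The remaining falls in bak1-1D were smaller. AT4G33980, known as COR28, is a cold-regulated gene under clock control. It stood at 6.34, 6.33 and 6.54 in bak1-1D, below 6.63 to 7.41 on the other 12 arrays (median 6.83), and fell by 0.50 ± 0.12 (limma adjusted p = 0.0181). Singly, it was called against WS2 (-0.76 ± 0.15) and bri1-1D (-0.61 ± 0.15). It was not called against the parent bri1-5 (-0.26 ± 0.15, adjusted p = 0.358) or brs1-1D (-0.37 ± 0.15, 0.152). The same gene was lower in bri1-5 than in WS2 (-0.50 ± 0.15, adjusted p = 0.0312). The call against the mean of the other 4 ended without bak1-1D replicate 1 or 2 (adjusted p up to 0.107). That against bri1-1D ended without bri1-1D replicate 2 or 3 or bak1-1D replicate 1 or 2 (up to 0.0763). The call of bri1-5 against WS2 ended without any 1 of the bri1-5 arrays or WS2 replicate 2 or 3 (up to 0.133).

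AT4G33150, which codes for the enzyme that starts lysine breakdown (LKR/SDH), stood at 7.37, 7.40 and 7.35 in bak1-1D against 7.46 to 7.89 elsewhere. It fell by 0.29 ± 0.08 (adjusted p = 0.0316). AT4G32340 stood at 8.74, 8.83 and 8.73 against 8.81 to 9.41, and fell by 0.34 ± 0.09 (adjusted p = 0.0302). The groups did not overlap for AT4G33150, and for AT4G32340 bak1-1D replicate 2 lay above brs1-1D replicate 2. Both calls ended without any 1 of the bak1-1D arrays (adjusted p up to 0.122 and 0.123), and that of AT4G33150 also after median centring (0.0513). AT4G33700, which codes for a CBS domain protein, stood at 6.70, 6.76 and 6.60 against 6.76 to 7.20. It fell by 0.27 ± 0.06 (adjusted p = 0.0168), a call that ended without bak1-1D replicate 1 or 3 (up to 0.115). Against the parent bri1-5 alone none of these genes was called. The differences were -0.32 ± 0.10 for AT4G33150, -0.39 ± 0.11 for AT4G32340 and -0.19 ± 0.08 for AT4G33700. Their limma adjusted p was 0.0771, 0.0635 (0.047 with the replicate block) and 0.22.

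**Figure D3:**
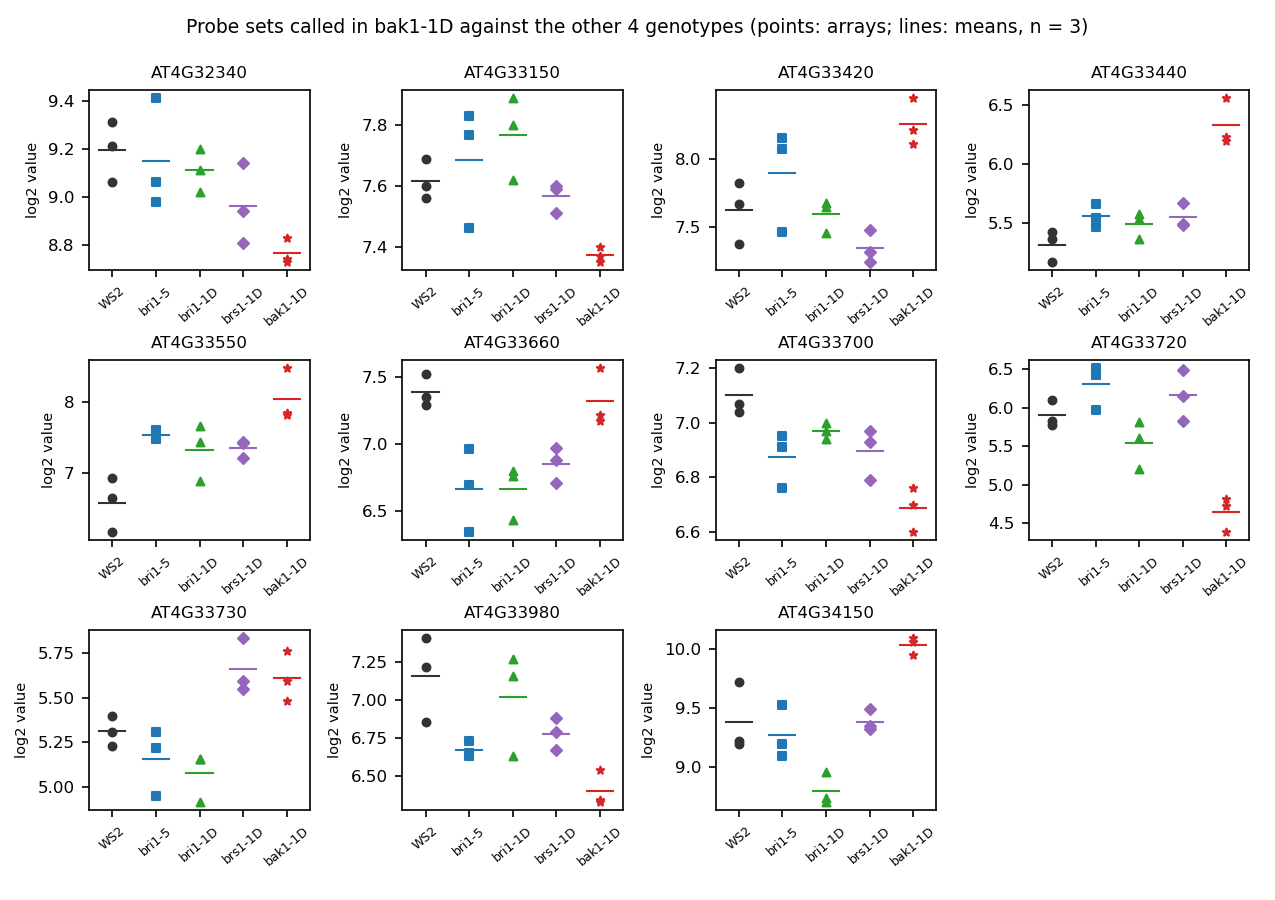
Log2 value per array (points) and genotype mean (lines, n = 3) of the 11 probe sets called in bak1-1D against the other 4 genotypes, in locus order. In AT4G33440, AT4G33550 and AT4G34150 all bak1-1D arrays lie above the other 12, in AT4G33150, AT4G33720 and AT4G33980 all lie below, and in the remaining 5 they overlap at least 1 other array.

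By role, called genes stood in several groups, each with few tested members. Roles came from a chosen list, and the counts below cover its genes only. It leaves out some members of these roles, such as AT4G32460 (cell wall) and AT4G32800 (AP2/ERF transcription factor family), counted as other. The array as a whole had 4.07% higher and 3.12% lower, and counts this small show nothing particular to a group. Of 3 tested cell wall genes 1 was higher (AT4G33440). Of 5 tested CAP, defence and redox genes AT4G33420 and AT4G33730 were higher and AT4G33720 lower. In amino acid, phenylpropanoid and carbon metabolism 1 of 4 was lower (AT4G33150), and AT4G33980 was the 1 tested cold and clock gene. Called members numbered 0 of 3 receptors and kinases, 0 of 2 transcription and chromatin genes, 0 of 2 cell cycle genes (AUR1, a mitotic kinase, counts in both this group and the kinases) and 0 of 3 genes of protein synthesis and turnover. The other 75 probe sets held 3 higher and 2 lower. AT4G33180 was the 1 gene with more than 1 tested probe set, and these differed by 0.12 and -0.04, neither called.

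Along the locus order the calls were counted in 4 stretches. Over the whole array 7.18% were called, 4.07% higher and 3.12% lower. Whether any stretch differs from this was not tested. From AT4G32300 to AT4G32999, 1 of 32 probe sets was called (3.12%), and from AT4G33000 to AT4G33429, 2 of 17. From AT4G33431 to AT4G33999, 7 of 26 were called (26.9%), with 4 higher and 3 lower. From AT4G34000 to AT4G34600 it was 1 of 22. The medians of the 4 stretches were -0.06, -0.01, -0.02 and 0.01, and that of all tested probe sets was -0.03. Without 1 of the bak1-1D arrays the interval had 5 called members in each case, when the array had 464 to 591 calls. The stretch after BAK1 then had 3 (without replicate 1), 4 (without replicate 2) and 3 (without replicate 3). Singly, bak1-1D had 4 calls in this stretch against bri1-5 (15.4%, array 4.34%) and 7 against WS2 (26.9%, array 10.0%). It had 7 against bri1-1D (26.9%, array 10.1%) and 2 against brs1-1D (7.69%, array 7.98%). In bri1-5 against WS2, without bak1-1D, the stretch had 6 calls (23.1%, array 17.6%). These comparisons share arrays.

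The comparison of bak1-1D with the mean of the other 4 genotypes was also counted in other places. Around BRS1, 3 of 88 probe sets were called (3.41%), and around BRI1 6 of 73 (8.22%). Elsewhere on chromosome 4 it was 71 of 1003 (7.08%), and among single-gene probe sets elsewhere 489 of 7400 (6.61%). Whether the share around BAK1 differs from these was not tested. The 3 bak1-1D arrays stood clear of the other 12 in 6 of 97 members, where 3.09% of all tested probe sets did. They lay above in 3 (1.46% over the array) and below in 3 (1.63%). WS2 arrays did so in 10 members (10.3% over the array), bri1-5 in 0 (0.962%), bri1-1D in 1 (1.84%) and brs1-1D in 3 (2.82%).

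**Figure D4:**
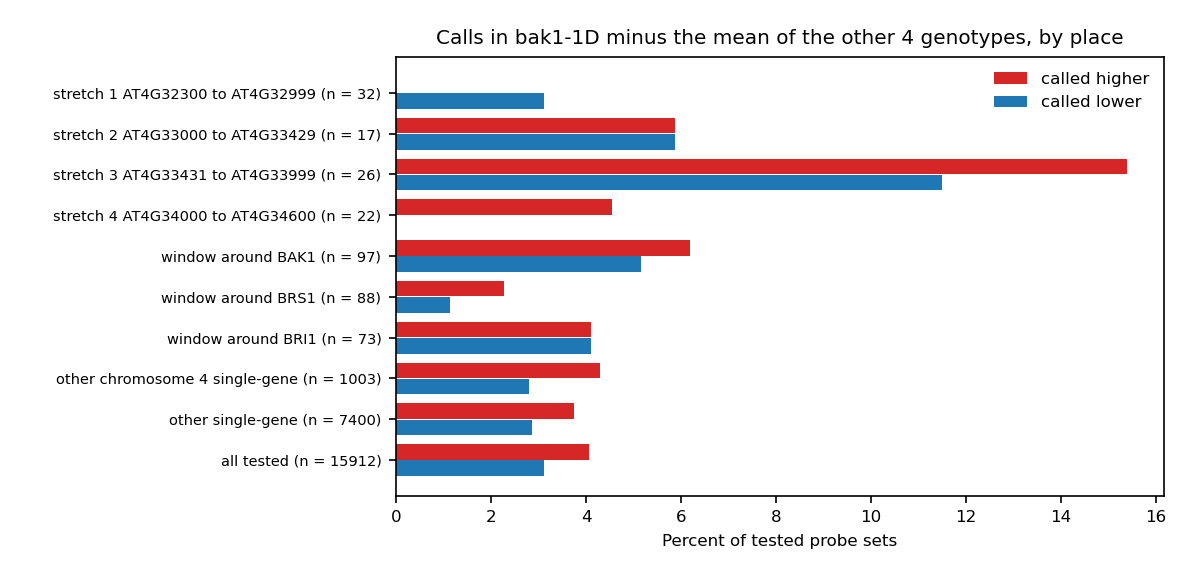
Percent of tested probe sets called higher (red) and lower (blue) in bak1-1D against the mean of the other 4 genotypes (horizontal axis), for 4 stretches of the interval, the intervals around BAK1, BRS1 and BRI1, the rest of chromosome 4, other single-gene probe sets and all tested probe sets. The stretch from AT4G33431 to AT4G33999 has 15.4% higher and 11.5% lower, where all tested probe sets have 4.07% and 3.12%.

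Each genotype was then compared singly. In bak1-1D against bri1-5, 5 of 97 members were called, where 4.34% of the array was. AT4G33440, AT4G33660, AT4G33730 and AT4G34150 were higher (2.94% over the array) and AT4G33720 was lower (1.40%). Without bri1-5 replicate 2 there were 3. Against WS2, 13 members were called, where 10.0% of the array was, with 6 higher (4.88%) and 7 lower (5.14%). Against bri1-1D 11 were called, where 10.1% of the array was, with 7 higher (5.85%) and 4 lower (4.27%). The count against bri1-1D was 5 without bri1-1D replicate 3 or bak1-1D replicate 2, and 7 without bri1-1D replicate 1 or bak1-1D replicate 3. Against brs1-1D 7 were called, where 7.98% of the array was, with 5 higher (3.99%) and 2 lower (3.99%), or 6 higher and 1 lower after median centring. These comparisons share the 3 bak1-1D arrays.

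Some members were called only against single genotypes. AT4G32460 codes for a cell wall protein of the DUF642 family. It stood at 9.20, 9.48 and 9.10 in WS2, 8.66, 8.61 and 8.55 in bri1-5 and 8.73, 8.70 and 8.71 in bak1-1D. In bri1-1D it was at 8.95, 8.84 and 8.99, and in brs1-1D at 8.07, 8.40 and 8.11. WS2 was highest and brs1-1D lowest, and bak1-1D was 0.54 ± 0.10 below the former and 0.52 ± 0.10 above the latter (limma adjusted p = 0.00365 and 0.00475). AT4G34220, a leucine-rich repeat receptor-like kinase gene, stood at 6.65, 6.23 and 6.44 in brs1-1D and at 6.71 to 7.12 in the other genotypes. It was 0.62 ± 0.10 higher in bak1-1D than in brs1-1D (adjusted p = 0.00171), and 0.04 ± 0.10 from bri1-5, not called.

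AT4G33666 was 0.85 ± 0.20 higher in bak1-1D than in WS2 (adjusted p = 0.0154, and up to 0.0718 without WS2 replicate 1 or bak1-1D replicate 2). It was not called against the other 3 lines (0.16 to 0.48). AT4G32600 was 0.25 ± 0.07 lower in bak1-1D than in brs1-1D (adjusted p = 0.0494), a call that ended in 13 of 15 fits that left out 1 array (up to 0.166), all but those without WS2 replicate 1 or 3.

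The interval was also compared between genotypes without bak1-1D. In bri1-5 against WS2, 15 members were called, where 17.6% of the array was, with 10 higher (9.45%) and 5 lower (8.14%), or 6 higher and 9 lower after median centring. The count was 7 without WS2 replicate 3 and 8 without bri1-5 replicate 1 or 3. AT4G33550 (0.96), AT4G33130 (0.56 ± 0.14) and AT4G32800 of the AP2/ERF transcription factor family (0.50 ± 0.15) had the largest rises. AT4G33660 (-0.72), AT4G32460 (-0.65 ± 0.10) and AT4G33980 (-0.50) had the largest falls. Leaving out bri1-5 replicate 3 ended the call of AT4G33130 (adjusted p = 0.0606), and leaving out WS2 replicate 2 or 3 or bri1-5 replicate 1 or 3 that of AT4G32800 (up to 0.13). With the replicate number as a block 19 were called, 4 more than without it. Over the whole array the block moved the calls from 2799 to 3323. The added members included GAMMA-VPE, a vacuolar protease gene (-0.26, adjusted p = 0.0336 with the block).

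In brs1-1D against bri1-5, 2 members were called, where 1.72% of the array was. AT4G33730 was higher (1.18% over the array) and AT4G34220 lower (0.534%), at -0.57 ± 0.10 (limma adjusted p = 0.01). There was 1 call without bri1-5 replicate 1 or brs1-1D replicate 3. With the replicate block there were 4, where the whole array had 410 calls (273 without the block). AT4G32460 (adjusted p = 0.0446) and AT4G32910 (0.0351), the gene of a nuclear pore protein, were added. In bri1-1D against bri1-5, 8 of 97 members had an unadjusted limma p under 0.05, where 1593 of all 15912 tested probe sets did. After adjustment 0 members were called, where 0.245% of the array was called. With the replicate block the count was again 0, and it was 1 without bri1-1D replicate 2. AT4G33440 differed by 0.24 ± 0.11, -0.01 ± 0.11 and -0.07 ± 0.11 in these 3 comparisons, none of them called.

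**Figure D5:**
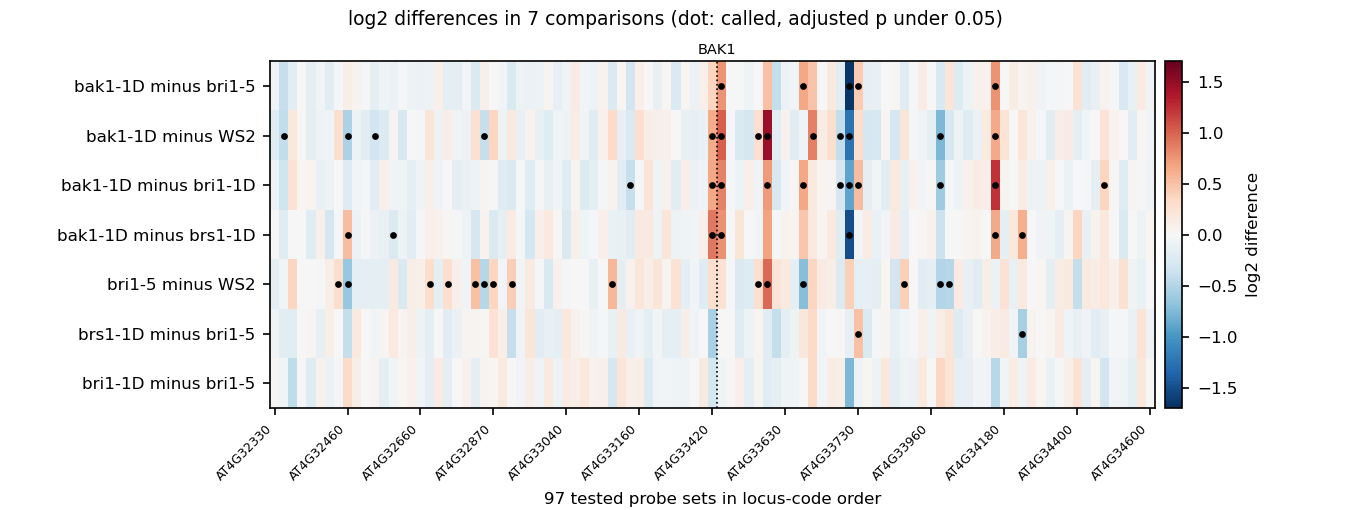
Log2 differences (colour, scale from -1.7 to 1.7) of the 97 tested probe sets in locus-code order (horizontal axis) in 7 comparisons between genotypes (rows), with a dot where limma's adjusted p was under 0.05. The columns of AT4G33440, AT4G33720 and AT4G34150 carry a dot in all 4 comparisons of bak1-1D and in none of the other 3.

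Of the listed brassinosteroid-induced genes elsewhere in the genome, 7 of 23 were tested. The list was drawn up with earlier results of these data known, so its counts are a description and no independent support. In bak1-1D against the mean of the other 4 genotypes 2 rose, where 4.07% of the array did, and 0 fell (median 0.28, and -0.03 over all tested probe sets). EXO rose by 1.26 ± 0.14 and XTH18 by 0.74 ± 0.11 (limma adjusted p = 0.000107 and 0.000802). Against bri1-5, 5 rose, where 2.94% of the array did, and 0 fell (median 0.52, and -0.04 over all). Against WS2, 0 were higher and 6 lower, where 5.14% of the array was lower (median -0.62, and -0.02 over all).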

How the data were processed

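For each of 15 ATH1 arrays the authors deposited 1 log2 value per probe set, made with GCRMA per the submitters' processing notes. GCRMA corrects background, normalizes between arrays and combines the probes of a set, with its version and settings not given in the sources used here. No counts stand behind array values, and the number of arrays limits the precision. Genes came from the platform's annotation, locus codes and gene order from the RefSeq gene table (TAIR10.1), and no coordinates or sequences were used.

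Genotype means were fitted in 1 model to the 15 arrays, over 15912 probe sets, with limma 3.58.1 in R 4.3.3 (lmFit, eBayes without trend), with Benjamini-Hochberg adjustment over all of them. It was tested on simulated data. Differences are given ± SE of the model. The members, lists and rules were chosen with earlier results of these data known. Named were the called members, the 5 tested members nearest to BAK1 on each side, up to 3 largest called rises and falls in each other comparison, and members whose bak1-1D arrays stood clear of all others, plus a few singled out after their values were seen (AT4G33370, AT4G33390, AT4G33710, AT4G33180, GAMMA-VPE and AT4G32910).

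Replicate numbers came from the sample titles, because the descriptions give all bak1-1D and brs1-1D arrays the same number. Deviations of same-number arrays correlated at 0.103 to 0.346 between bri1-5 and WS2, bri1-1D or brs1-1D, above 0.1 in every pair, so the blocked values are given beside those comparisons. For bak1-1D they ran from -0.212 to 0.321. Alternatives were the block, 2 filters, median centring, an intensity trend, array weights, fits of 6 arrays, and leaving out each array.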

Additional observations from a re-analysis of the deposited data

How the results depend on the processing

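Leaving out 1 array moved the number of called members from 11 to between 5 and 12 for bak1-1D against the other 4 genotypes, and from 7 to between 3 and 7 in the stretch from AT4G33431 to AT4G33999. It gave 3 to 5 against bri1-5 (5 with all arrays), 9 to 14 against WS2 (13), 5 to 12 against bri1-1D (11) and 6 to 8 against brs1-1D (7). For bri1-5 against WS2 it gave 7 to 17 (15), for brs1-1D against bri1-5 1 to 3 (2) and for bri1-1D against bri1-5 0 to 1 (0). Fewer samples stood behind each of these fits. Array weights gave 9 calls for bak1-1D against bri1-5, with 4 higher and 5 lower where equal weights gave 4 and 1. Over the whole array the calls went from 690 to 1256. Array weights gave 5 for brs1-1D against bri1-5, with 1 higher and 4 lower where equal weights gave 1 and 1. Over the whole array these calls went from 273 to 457. In fits of the 6 arrays of the 2 genotypes the counts of members were 3 and 1 (548 and 236 over the whole array). The cause was not tested. The replicate block gave 4 in brs1-1D against bri1-5 (410 over the whole array). For bak1-1D against the other 4 it gave 11 (1380 over the whole array, and 1143 without the block). Every other count of members stayed within 1.5 times. In no pair with bak1-1D did all 3 arrays correlate best with their own number. Of the 11 named calls, AT4G33440, AT4G33720 and AT4G34150 held in all 21 alternatives, and AT4G33730 was not tested under the stricter filter. That filter kept probe sets with 3 or more arrays above a log2 value of 6. AT4G33440 passed it only through its bak1-1D arrays (6.56, 6.20 and 6.23), and AT4G33720 only through arrays of other genotypes. For these genes the stricter filter is therefore no independent support. AT4G34220 (0.25 ± 0.08, adjusted p = 0.0833) was called after median centring (0.047), with array weights (0.0472) and without brs1-1D replicate 1 (0.0372). The number of members whose bak1-1D arrays stood clear of the others was 6, and 6 to 9 without 1 array (9 without bak1-1D replicate 2). Leaving out an array cannot lower this count, so the range does not show how stable it is. The share over the whole array was not counted in these fits. This alternative was chosen after seeing the data, as was that of the stretch. No named call changed sign in these alternatives. Signal near background limits the 27 untested probe sets.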
